A study of Rattus norvegicus with 34 samples.

Results

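In 5 compartments of rat organs isolated by laser microdissection, miRNAs were measured by quantitative PCR on TaqMan array card A. The 3 epithelial compartments bronchial gland, mammary gland, and intestinal villus were set against glomerulus, and proximal tubule was placed between them. These are the 5 samples of card A with 12 cycles of preamplification, of 17 samples on card A and 34 in the series. All came from Sprague-Dawley rats at the age of 4 weeks, and no agent or allele is given for any of them. The sex and the number of animals behind each sample are not given. The bronchial gland was cut from the trachea, proximal tubule and glomerulus from the kidney, and the villus from the small intestine. Each compartment is 1 sample measured once, so the 3 epithelia are different tissues and not replicates, and no difference below can be tested against replicate error.

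miRNAs are short RNAs that hold down the translation and stability of messenger RNAs, and many of them are restricted to certain cell types. The glomerulus is the filter of the kidney, a tuft of capillaries with endothelium, mesangial cells, and podocytes. The proximal tubule that follows it is a transporting epithelium, as is the lining of the villus, while glands consist of secretory epithelium and ducts in a stroma. The miR-200 family is the best known group of miRNAs shared by epithelia, and the study asked whether such miRNAs are found in small structures made of epithelial cells and how the glomerulus compares. The table of values numbers its 384 positions and carries no miRNA names, and the array definition was not used here. The results are therefore given by position, no position was assigned to a miRNA, no miRNA sequence is shown, and marker miRNAs of the compartments were not checked.

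The value of a position is its Cp, the PCR cycle at which its fluorescence crosses the threshold, so that a lower Cp means more template. Wells without amplification are listed at 50, and a Cp of at most 35 was taken as detected. Positions 11, 12, 35, and 36 repeat the same abundant RNA and were left out, which leaves 380 positions. Detected positions numbered 248 for bronchial gland, 230 for mammary gland, and 217 for villus, but 186 for proximal tubule and 177 for glomerulus. All 5 compartments shared 149 detected positions, and 99 positions were detected in none of them. The median Cp over the 149 shared positions was 23.3 in bronchial gland, 24.4 in mammary gland, 23.4 in villus, 27.97 in proximal tubule, and 27.95 in glomerulus. The kidney compartments thus came about 4 cycles later than the epithelia. This median was subtracted from each library to give the scaled Cp.

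The repeated wells show the technical spread for an abundant RNA. Their Cp was 16.4 ± 0.096 (SD, n = 4 wells) in bronchial gland, 17.9 ± 0.29 in mammary gland, 15.8 ± 0.24 in villus, 18.3 ± 0.41 in proximal tubule, and 19.3 ± 0.50 in glomerulus. In proximal tubule and glomerulus 88.2% and 86.6% of the amplified wells lay within 0.05 cycles of a whole number, against 9.26% to 15.0% in the 3 epithelia. Differences that involve glomerulus are accordingly resolved in steps of about 1 cycle, and only gaps of at least 1 cycle were counted. The SD of the repeated wells in proximal tubule and glomerulus may include such steps, which was not examined. It is therefore not directly comparable with the SD in the epithelia. Because the kidney libraries were later, the detection limit lies at a scaled Cp of 7.03 in proximal tubule and 7.05 in glomerulus, but between 10.6 and 11.7 in the epithelia. Lateness and steps are shared by both kidney compartments, and their part in the differences from the epithelia cannot be told apart from that of the kidney itself. Fewer cells of a type and less RNA per cell cannot be told apart either.

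The 3 epithelia resembled each other, and the 2 kidney compartments resembled each other. Over the 149 shared positions the Spearman correlation of Cp was 0.927 between bronchial and mammary gland, 0.840 between bronchial gland and villus, and 0.832 between mammary gland and villus. It was 0.844 between proximal tubule and glomerulus. Between an epithelium and a kidney compartment it ranged from 0.723 (bronchial gland and proximal tubule) to 0.790 (mammary gland and glomerulus). The correlations of proximal tubule with bronchial gland, mammary gland, and villus were 0.723, 0.754, and 0.754, and those of glomerulus were 0.729, 0.790, and 0.727. By correlation, villus was thus slightly closer to proximal tubule and mammary gland slightly closer to glomerulus, while bronchial gland was about equally close to both. These correlations are across positions, which are not independent replicates, and the libraries share the card and the preamplification. The difference in scaled Cp exceeded 1 cycle at 69 to 78 of the 149 positions between pairs of epithelia, at 67 between the kidney compartments, and at 91 to 110 between an epithelium and a kidney compartment. Against proximal tubule and glomerulus these numbers were 99 and 98 for mammary gland, 100 and 110 for villus, and 91 and 97 for bronchial gland. By this count mammary gland was no closer to either.

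A position was counted as higher in the epithelia when it was detected in all 3 and each of them came at least 1 cycle before glomerulus on the scaled axis. There were 22 such positions, 11.6% of the 189 positions detected in all 3 epithelia. In the other direction, 66 positions came at least 1 cycle earlier in glomerulus than in each epithelium, 37.3% of the 177 detected in glomerulus. Of the 157 positions detected in all 4 libraries, 91 fell in neither class. Glomerulus was detected at 15 of the 22 positions, and all 3 epithelia at 51 of the 66. The split between the directions depends on the scale. With the mean of the repeated wells as the scale there were 62 positions higher in the epithelia and 25 higher in glomerulus, and without scaling 148 and 10. With undetected wells set to 40 the numbers were 46 and 66, and with values up to Cp 40 kept 48 and 61. Each of these settings moves glomerulus, or its undetected wells, later relative to the epithelia. With a detection limit of 32 there were 21 and 49 positions, and 15 of the 22 were among the 21. With mammary gland left out, 35 positions were higher in the remaining epithelia, and with bronchial gland or villus left out 33 in each case.

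**Figure D1:**
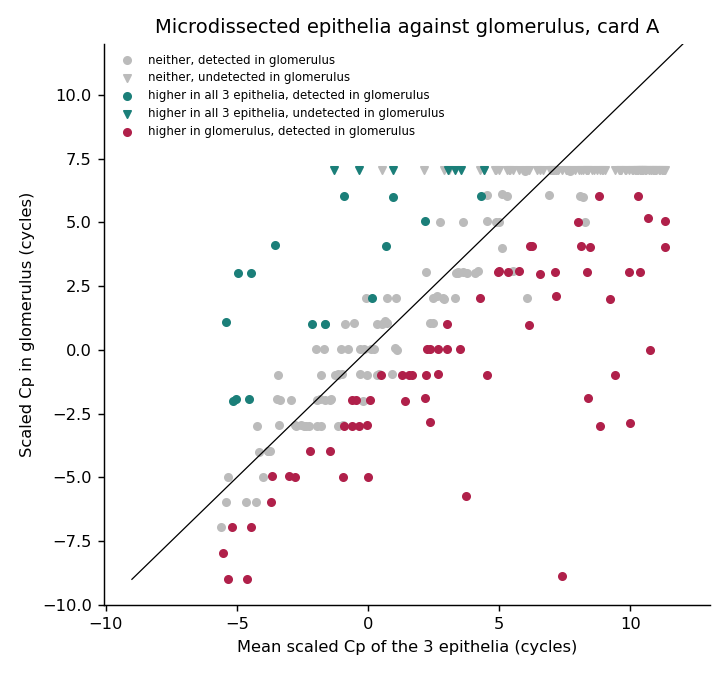
Each point is 1 of the card A positions detected in at least 1 of the 4 libraries; the horizontal axis is the mean scaled Cp of bronchial gland, mammary gland, and villus and the vertical axis the scaled Cp of glomerulus, both in cycles, with a line of equality. The 22 positions higher in all 3 epithelia lie above the line and the 66 higher in glomerulus below it, and undetected glomerulus wells (triangles) lie on the detection limit at 7.05.

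The clearest separation among positions detected everywhere was at position 80. Its Cp was 22.4 in bronchial gland, 23.3 in mammary gland, 22.7 in villus, 30.01 in proximal tubule, and just under 34 in glomerulus. The 3 epithelia lay within 0.35 cycles of each other on the scaled axis, and the gap from the nearest of them to glomerulus was 6.76 cycles. Proximal tubule stood between, 4.01 cycles before glomerulus. At position 116 the Cp was 17.2, 19.6, and 18.2 in bronchial gland, mammary gland, and villus, 26.97 in proximal tubule, and 29.04 in glomerulus, with a gap of 5.86 cycles. Both kidney compartments were again later than each epithelium, and glomerulus came 2.09 cycles after proximal tubule.

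At position 374 bronchial gland was the earliest compartment. The Cp was 17.4 there, 22.1 in mammary gland, 20.9 in villus, 33.96 in proximal tubule, and 32.05 in glomerulus. The gap was 6.34 cycles, the epithelia spread over 3.70 cycles, and both kidney compartments were late, proximal tubule more so than glomerulus. Position 205 was also earliest in bronchial gland, at a scaled Cp of -6.16, with villus next at -5.03 and mammary gland later at -2.14. It was at 0.98 in proximal tubule and 3.02 in glomerulus, a gap of 5.16 cycles. At position 115 the scaled Cp was -5.83, -4.43, and -4.89 in the 3 epithelia, -5.00 in proximal tubule, and -1.93 in glomerulus. Here proximal tubule lay among the epithelia, and glomerulus alone was late.

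Gaps of the other positions in this list were smaller. They were 2.81 cycles at position 271, 2.25 at position 88, 2.16 at position 233, 1.97 at position 139, and 1.78 at position 349. At positions 271, 88, 139, and 349 proximal tubule was within 0.08 cycles of glomerulus, so the 2 kidney compartments were equally late. Position 349 was nearly level within each side: the epithelia were at 0.10, 0.13, and 0.26, and the kidney compartments at 2.02 and 2.03. At position 233 the epithelia spread over 5.93 cycles, more than the gap itself, and proximal tubule was undetected.

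Of the 22 positions, 7 were undetected in glomerulus, and their gaps are lower bounds. Over all positions compared, 32 were detected in all 3 epithelia but not in glomerulus, 21 of them in neither kidney compartment. Conversely, 2 were detected in glomerulus and in none of the 3 epithelia. Those of the 32 that are not among the 7 had lower bounds under the gap required for the count. The 7 are therefore not all the positions undetected in glomerulus alone among these 4 libraries. Position 97 had a Cp of 22.3 in bronchial gland, 24.9 in mammary gland, and 22.9 in villus, 29.97 in proximal tubule, and no amplification in glomerulus, a gap of at least 6.52 cycles. The neighbouring position 98 was at 26.1, 27.5, and 26.5 in the epithelia and about 32 in proximal tubule, again with no amplification in glomerulus, and its gap was at least 3.87 cycles. In both, template was measured in 4 compartments and not in the fifth. Position 314 was at 17.1 in bronchial gland but at 25.04 in mammary gland and 25.07 in villus, with 35.99 in proximal tubule and 35.01 in glomerulus, just past the limit. Position 122 was detected at 23.3, 23.7, and 26.98 in the epithelia and did not amplify in either kidney compartment. Position 332 was at 25.3, 27.3, and 28.5 in the epithelia, 35.95 in proximal tubule, and without amplification in glomerulus; its gap was at least 2.00 cycles, and with a detection limit of 32 the floor of glomerulus fell below the latest epithelium.

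**Figure D2:**
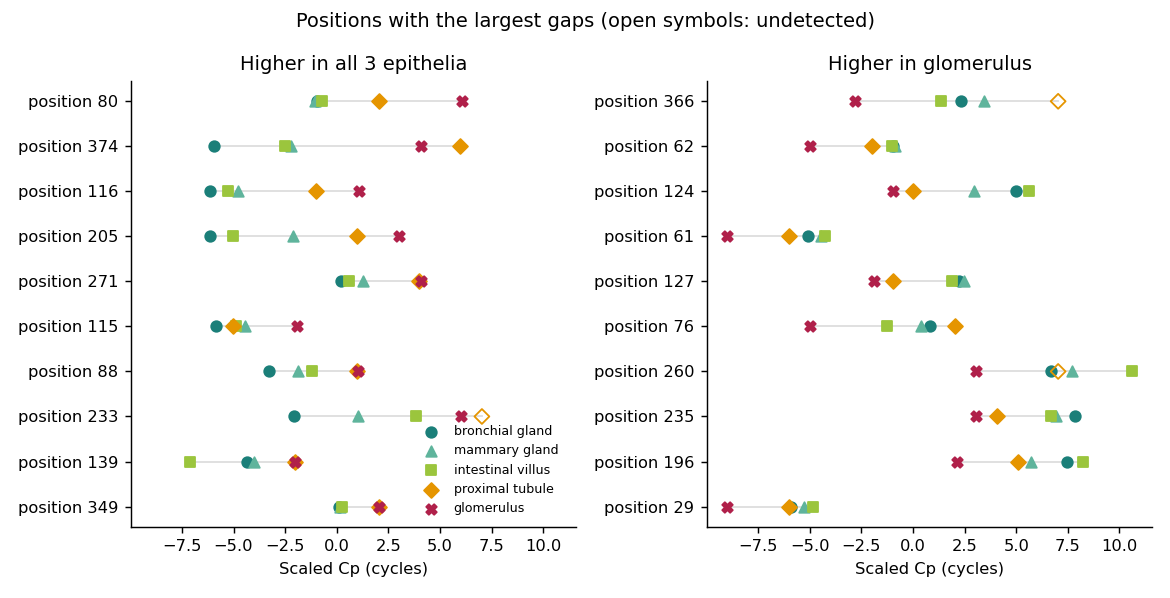
Scaled Cp in cycles (horizontal axis) of the 10 positions with the largest gaps in each direction among those detected in the 3 epithelia and in glomerulus; each symbol is 1 library and open symbols are undetected wells. On the left the epithelia precede glomerulus by 1.78 to 6.76 cycles, and on the right glomerulus precedes the epithelia by 3.10 to 4.15 cycles.

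On the side of glomerulus the gaps at positions detected in all 4 libraries were between 1.02 and 4.15 cycles, with a median of 1.94. Position 366 had the largest. Its Cp was 25.6 in bronchial gland, 27.8 in mammary gland, 24.8 in villus, and 25.1 in glomerulus, and it did not amplify in proximal tubule. The gap of 4.15 cycles thus arises on the scaled axis, since before scaling villus came 0.39 cycles earlier than glomerulus. Positions 61 and 62 were alike. At position 62 the Cp was 22.35 in bronchial gland, 23.48 in mammary gland, 22.42 in villus, 25.97 in proximal tubule, and 22.97 in glomerulus. After scaling the epithelia were within 0.11 cycles of each other, proximal tubule was slightly earlier, and glomerulus was earlier by a gap of 3.98 cycles.

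Position 61, among the most abundant positions, was at -5.10, -4.48, and -4.25 in the epithelia, -6.02 in proximal tubule, and -8.99 in glomerulus, with a gap of 3.88 cycles. Position 29, where glomerulus had its lowest Cp on the card (18.9), was at Cp 17.42, 19.10, and 18.56 in the epithelia and 21.99 in proximal tubule, with a gap of 3.10 scaled cycles. At both positions proximal tubule was 3 cycles later than glomerulus and closer to the epithelia. Position 76 separated the kidney compartments most among those detected in all 5. Its scaled Cp was 0.82 in bronchial gland, 0.38 in mammary gland, -1.25 in villus, 2.02 in proximal tubule, and -4.99 in glomerulus. Proximal tubule was the latest of the 5 and glomerulus the earliest, 7.01 cycles apart.

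At positions 124 and 127 the kidney compartments were instead together. Position 124 was at 5.00, 2.96, and 5.61 in the epithelia, 0.00 in proximal tubule, and -0.97 in glomerulus. Position 127 was at 2.23, 2.45, and 1.87 in the epithelia, -0.98 in proximal tubule, and -1.90 in glomerulus. The gaps to glomerulus were 3.93 and 3.78 cycles, and the kidney compartments differed by about 1 cycle, that is, by 1 step. Positions 260, 235, and 196 completed the list with gaps of 3.65, 3.62, and 3.61 cycles, at Cp between 30.01 and 34.03 in all 4 libraries compared. Without scaling, 8 of these 10 positions were earlier in at least 1 epithelium than in glomerulus, all but positions 124 and 196. Only 2 positions higher in glomerulus were undetected in all 3 epithelia. Position 255 had a Cp of 31.98 in glomerulus and was detected in no other compartment, and position 249 had about 33 in glomerulus and 32.11 in proximal tubule.

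Positions undetected in some of the epithelia gave the widest gaps on this side, and 4 of them stood apart from the whole kidney. They are named here because of their values. Position 156 had a Cp of 19.1 in glomerulus and 19.0 in proximal tubule, against 24.7 in bronchial gland, 41.7 in mammary gland, and 33.6 in villus. In the whole kidney, measured without preamplification, the same position was at 37.0, past the detection limit. Position 305 was at 25.1 in glomerulus, 27.1 in proximal tubule, and 31.0 in bronchial gland, and did not amplify in whole kidney. Position 241 was at 22.2 in glomerulus, 22.8 in bronchial gland, and 24.4 in mammary gland, without amplification in villus, proximal tubule, or whole kidney. Position 77 was at 26.1 in glomerulus, 30.3 in bronchial gland, and 30.9 in mammary gland, and also failed to amplify in the other 2 compartments and in whole kidney. These early values are thus not seen in the organ that holds the compartment. The other 62 of the 66 positions (93.9%) were detected in whole kidney, close to the share of all positions detected in glomerulus, 171 of 177 (96.6%). Of those 177, 6 were undetected in whole kidney. Preamplification, which separates the compartments from the organs, was not tested as a cause.

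Proximal tubule was then placed at the counted positions. Among the 22 positions higher in the epithelia, proximal tubule lay between the nearest epithelium and glomerulus at 12, at or before the nearest epithelium at 3 (positions 114, 115, and 129), and at or after glomerulus at 3. At 4 positions neither kidney compartment was detected and the place cannot be told. Among the 66 positions higher in glomerulus it lay between at 27, at or after the nearest epithelium at 13, and at or before glomerulus at 21, with 5 that cannot be told. Over both directions proximal tubule was between at 39 of 79 positions, or 49.4%. These positions come from the same 5 libraries and are not independent, so no interval is given. No tolerance was used, so differences of hundredths of a cycle, far below the steps of the kidney wells, could decide the place. Positions 271, 88, 139, and 349 count as between, and positions 14, 16, 40, and 41 as at or before glomerulus. At all of these the kidney compartments were level, so the counts and the share partly sort ties. With the repeated wells as the scale this share was 31.5%, and among gaps of at least 3 cycles it was 64%.

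Where both kidney compartments were detected, their order can be read directly. At the 13 such positions higher in the epithelia, proximal tubule came over 0.5 cycles before glomerulus at 7, was within 0.5 cycles of it at 5, and came later at 1. At the 56 such positions higher in glomerulus, proximal tubule came over 0.5 cycles later at 34, was within 0.5 cycles at 15, and came earlier at 7. In each direction proximal tubule was thus more often displaced from glomerulus toward the epithelia than away from them. Over all 149 shared positions, glomerulus minus proximal tubule had quartiles of -0.99 and 0.12 cycles. A later proximal tubule was therefore common on the card as a whole, and the same split was not made over all positions. The counted positions were also chosen by the value of glomerulus. A value of glomerulus that is early or late by chance would shift both comparisons alike, and with 1 library of glomerulus this was not tested. Set against the same 3 epithelia, proximal tubule had 26 positions at which the epithelia were higher (13.8% of 189) and 57 at which it was higher itself (30.6% of its 186 detected positions). These counts share the epithelial libraries with those for glomerulus.

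**Figure D3:**
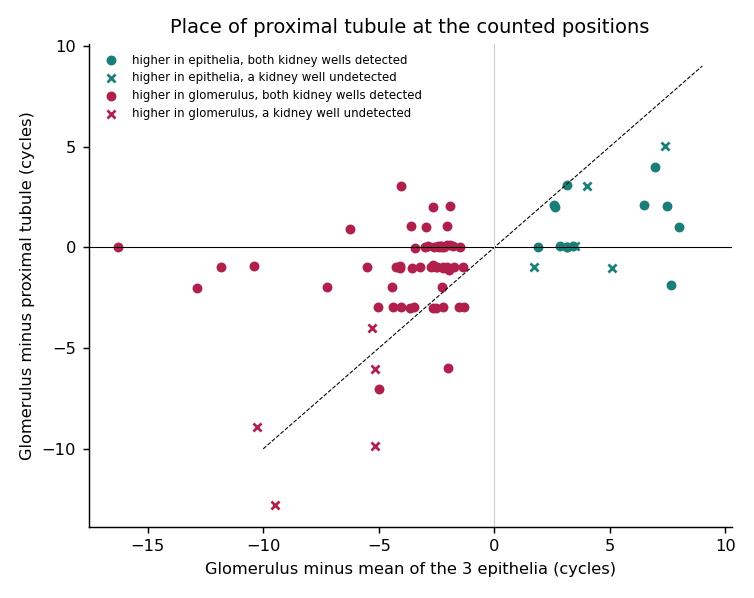
Scaled difference between glomerulus and proximal tubule (vertical axis, cycles) against that between glomerulus and the mean of the 3 epithelia (horizontal axis, cycles) for the 79 counted positions whose place could be told; on the solid line proximal tubule equals glomerulus and on the dashed line it equals the epithelial mean. Points on the right are higher in the epithelia and those on the left higher in glomerulus, and they cluster at whole cycles on the vertical axis; crosses have an undetected kidney well, set to the limit.

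Positions led by 1 compartment over all 4 others by at least 3 scaled cycles numbered 32, or 11.4% of the 281 positions detected in at least 1 compartment. Bronchial gland and glomerulus led 10 each, villus 5, mammary gland 4, and proximal tubule 3. Villus had the largest leads. Position 214 had a Cp of 16.3 in villus and 34.4 in bronchial gland, and was undetected in the other 3 compartments. Position 130 was at 15.8 in villus, 34.84 in bronchial gland, and 34.04 in proximal tubule. Whole small intestine was at 19.9 at position 130, its lowest Cp on the card, but at 38.9 at position 214. Position 130 was therefore also early in the whole organ, and position 214 was not. These are values of 1 organ and do not show a lead over other organs.

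Position 368 had the lowest Cp of any compartment, 10.3 in villus, against 19.97 in bronchial gland, 25.9 in mammary gland, 29.97 in proximal tubule, 30.95 in glomerulus, and 28.4 in whole small intestine. It is 1 of the 22 positions higher in the epithelia, with a gap of 1.46 cycles set by mammary gland. In mammary gland position 225 led, with a Cp of 21.5 against 29.5 in bronchial gland and no amplification elsewhere, although it was detected in all 12 whole tissues. In bronchial gland position 314 led by 6.95 cycles. In proximal tubule position 313 led, with a Cp of 30.5 and no other detection among the compartments, and it did not amplify in whole kidney. Detection in a single compartment was seen at 22 positions in bronchial gland, 8 in mammary gland, 7 in villus, 3 in proximal tubule, and 1 in glomerulus, in the order of the numbers detected.

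**Figure D4:**
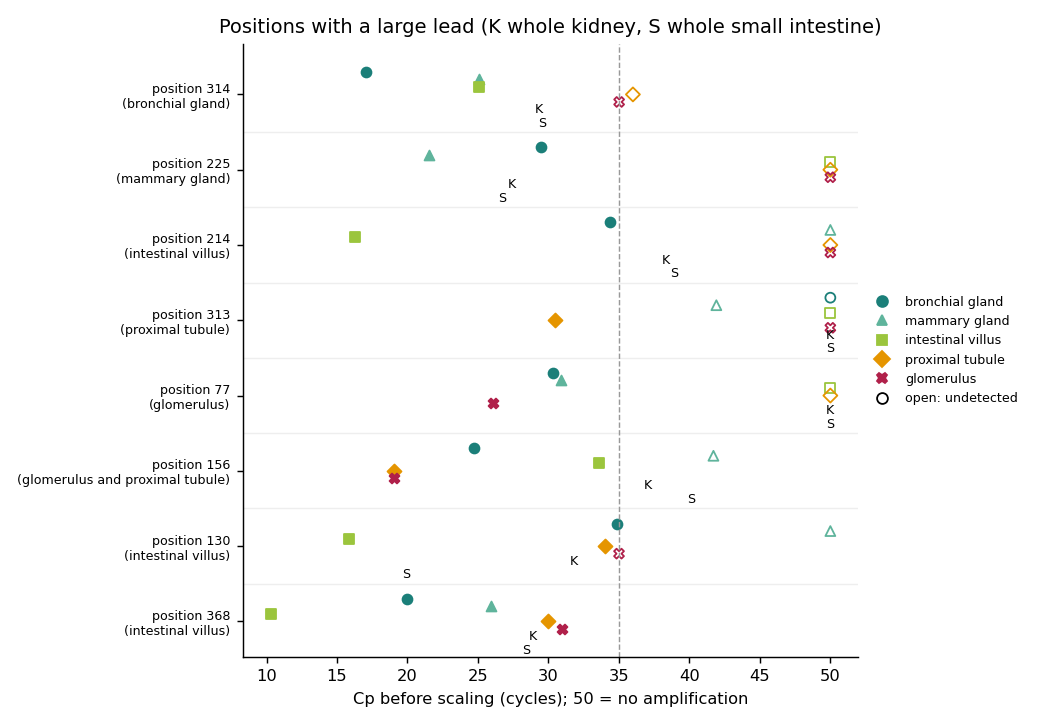
Cp before scaling (horizontal axis, cycles) at the position with the largest lead in each compartment and at positions 156, 130, and 368. The compartment named beside each position is the one that leads, except at position 156, where the 2 named kidney compartments were level and neither leads. Symbols are the 5 compartments, K is whole kidney, and S is whole small intestine. At position 130 whole small intestine (19.9) is near villus (15.8), whereas at positions 214 and 368 it is 38.9 and 28.4 against 16.3 and 10.3 in villus.

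The 12 whole tissues, measured on the same card without preamplification, were not used to choose the 22 and the 66 positions. They were scaled to the 84 positions detected in all 12. Undetected wells were set to the limit here too. That limit differs among tissues on the scaled axis, as the subtracted medians ran from 24.1 in lung to 31.2 in pancreas. Bile duct, small intestine, lung, kidney, prostate, pancreas, and the salivary and lacrimal glands are listed in the study as tissues with high levels of the miR-200 family, judged on these tissue libraries. They were set here against the remaining 4 tissues, liver, heart, skeletal muscle, and spleen, a division that the study itself does not make. At 16 of the 22 positions higher in the microdissected epithelia (72.7%) the mean scaled Cp was lower in the 8 tissues than in the other 4, against 31.2% of the 189 positions detected in all 3 epithelia. The median difference, the 4 tissues minus the 8, was 1.34 cycles at the 22 positions and -0.59 at the 189. For the positions higher in glomerulus it was -1.03 cycles, with 11 of 66 (16.7%) lower in the 8 tissues, against -0.64 and 28.2% for the 177 positions detected in glomerulus. No test was made of these shares, as the positions are not independent. The 8 tissues were grouped by miR-200 levels in these same libraries, so any miR-200 position among the 22 would add to the share by that choice. How many there are is not known, as no position was assigned to a miRNA.

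The tissues divided most clearly at heart, skeletal muscle, and spleen. The median scaled Cp of the 22 positions was 3.62 in heart, 3.58 in skeletal muscle, and 4.32 in spleen, and between 1.45 (prostate) and 2.54 (liver) in the other 9 tissues. The median of the 66 positions higher in glomerulus was 2.28 in heart, 2.60 in skeletal muscle, and 2.83 in spleen. It was 4.90 in salivary gland, 5.05 in lacrimal gland, and 2.20 in kidney. The whole kidney thus had nearly equal medians for both sets, 2.33 and 2.20.

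The difference in tissues was largest at 6 of the 22 positions. It was 7.05 cycles at position 115, 6.93 at position 80, 6.82 at position 114, 6.27 at position 205, 6.04 at position 116, and 4.34 at position 97, and at most 2.52 at the other 16. Of these 6 positions, 80, 114, 115, and 116 also belong to the 5 positions at which each of the 8 tissues was higher than each of the other 4. These 5 were chosen from the same tissue values as the difference, so a large difference at them follows from the choice. Position 226 is the remaining one, with scaled Cp of -3.83, -2.75, and -3.80 in bronchial gland, mammary gland, and villus, -3.99 in proximal tubule, and -1.94 in glomerulus. Its gap of 0.80 cycles was under the 1 cycle required. At 114, 115, and 226 proximal tubule was level with the epithelia and glomerulus 2.05 to 3.07 cycles later than proximal tubule, while at 80 and 116 proximal tubule was itself later than each of the 3 epithelia. At positions 8 and 7, conversely, the tissue difference was -4.87 and -3.33 cycles, although both were higher in the microdissected epithelia than in glomerulus.

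**Figure D5:**
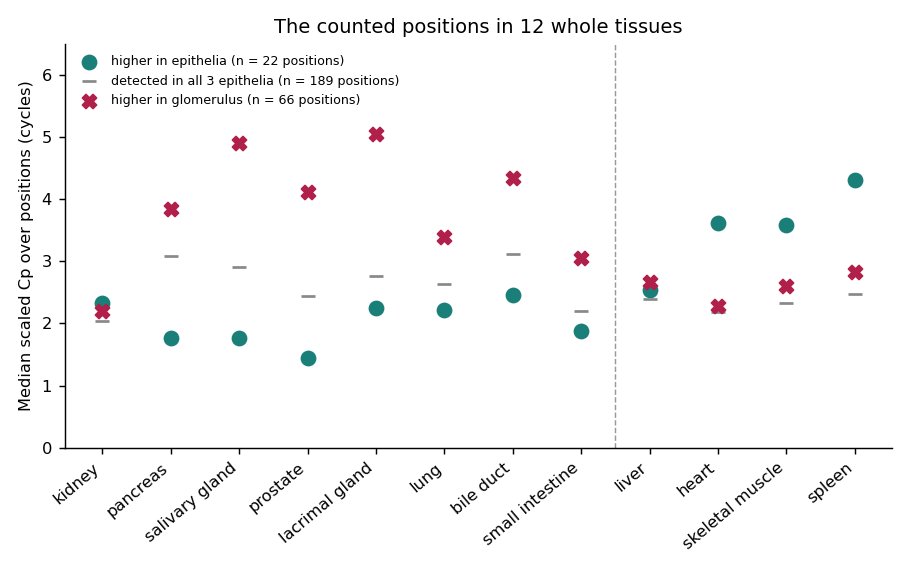
Median scaled Cp (vertical axis, cycles) in each of 12 whole tissues over the 22 positions higher in the microdissected epithelia, the 66 higher in glomerulus, and the 189 detected in all 3 epithelia; a dashed line sets apart liver, heart, skeletal muscle, and spleen. The 22 positions have a lower median than the 66 in 7 of the 8 tissues on the left, all but kidney (2.33 and 2.20), and a higher one in heart, skeletal muscle, and spleen. In pancreas 29 of the 66 were detected, so their median there, 3.85, is the detection limit.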

How the data were processed

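Expression profiling was performed by the authors with TaqMan rodent array card A on an ABI Prism real-time PCR instrument. SDS software and RQ Manager gave the Cp values, which were deposited without the later U6 correction, a well that did not amplify being entered as 50. Software versions and threshold settings are not given in the sources used here. RNA of microdissected samples was purified with the mirVana PARIS kit and that of tissues with TRIzol reagent. Depth has no counterpart here, and precision is limited by 1 well per position and library.

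Columns were assigned to samples by the number in the labels. Card B was not used here. Cp over 35 was set to 35, the median over the 149 positions shared by all 5 compartments was subtracted from each library, and the 4 repeated positions were left out. The positions named are the 10 largest gaps in each direction among those detected in the 4 libraries compared, up to 5 undetected on one side in each direction, the largest lead of each compartment, and the positions separating 8 tissues from 4. Others were named after their values were seen. The compartments and rules were chosen with earlier results of these data known. The search was tested on simulated data with planted positions. Those data held no undetected wells, no whole-cycle steps, and no differences among the epithelia beyond a shift and small noise. The effect of these features on the counts was therefore not tested. Detection limits of 32 and 40, other scales, floors, and gaps, and leaving out each epithelium were tried. Tools were matplotlib 3.10.9, scipy 1.17.1, pandas 2.3.3, and numpy 2.4.6 under Python 3.11.15.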

Additional observations from a re-analysis of the deposited data

Results flagged for a closer look

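The lowest Cp of a library stood apart in intestinal villus, at 10.3 (position 368), whereas it was between 17.1 and 19.0 in the other 4 compartments. The gap to the nearest compartment was 0.773 of the whole range over the 5 compartments, above the critical value of 0.71. Among 10 sets of values compared it was the 1 past its critical value, which depends on the number of values, and chance alone gives about 1 in 20.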

How the results depend on the processing

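The number of positions higher in all 3 epithelia was 22. It was 48 with values up to Cp 40 kept, 46 with undetected wells at 40, 148 without scaling, and 62 with the repeated wells as the scale. It was 35 with a gap of 0.5 cycles and 8 with a gap of 3 cycles. The number higher in glomerulus was 66, against 10 without scaling, 25 with the repeated wells, and 24 with a gap of 3 cycles. With each epithelium left out, these numbers ran from 33 to 35 and from 68 to 80. Fewer epithelia make the condition easier to meet. With 1 scaled floor for all libraries, an alternative chosen after seeing the data, they were 21 and 64. The share of positions with proximal tubule between was 31.5% with the repeated wells and 64% with a gap of 3 cycles, and from 47.3% to 52.8% with each epithelium left out. Positions led by 1 compartment numbered 17 with a limit of 32, 59 with values up to Cp 40 kept, 55 with undetected wells at 40, 49 without scaling, 55 with a lead of 2 cycles, and 10 with a lead of 5 cycles, against 32.

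Without scaling the gap turned to -0.39 at position 366, -0.62 at 62, -0.74 at 61, -0.76 at 127, -0.80 at 76, -0.98 at 260, -0.92 at 235, and -1.52 at 29, by the later Cp of the glomerulus library. With a limit of 32 it turned to -0.69 at position 332. None of the other gaps and leads recomputed changed sign, and those of positions 114, 130, 156, 226, 241, 305, and 368 were not recomputed. No paired analysis was possible because each compartment has 1 library.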
